A study of Mus musculus with 11 samples.

Results

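The genes described here are 52 genes of DNA replication and of the supply of its nucleotide building blocks, measured in mouse haematopoietic stem cells. They were chosen by symbol from knowledge of the pathway, with earlier results of these data known. Their counts beside the shares of all genes are therefore description and no independent support. All 52 were found among the 49585 genes of the count table. All 52 also passed the filter on low counts, which left 13448 genes for testing. The cells came from the bone marrow of C57BL/6 mice and were sorted as Lin- c-Kit+ Sca-1+ CD48- CD150+, then split by surface CD41, an integrin chain best known from megakaryocytes and platelets. Control mice had received rabbit serum, and the other mice were taken 24 h after their platelets had been depleted. The 4 groups were control CD41- (3 libraries), control CD41+ (2 libraries), depleted CD41- (3 libraries) and depleted CD41+ (3 libraries). Each library was made from 1000 sorted cells pooled from 3 mice, so differences between single mice are not seen. Values are CPM, a gene's counts scaled to a common library total, after TMM normalization, and a gene is called when the adjusted p of edgeR's quasi-likelihood test is under 0.05 over the 13448 genes.

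DNA replication begins when the origin recognition complex (ORC), with Cdc6 and Cdt1, loads the ring-shaped MCM helicase onto DNA in G1 phase. Kinases, Cdc45 and the GINS complex then activate the helicase, and primase, the replicative polymerases, the sliding clamp and its loader copy the DNA while replication protein A covers single strands. Ribonucleotide reductase and the thymidylate enzymes supply the deoxynucleotides, and chromatin assembly factors place histones behind the fork. Many of these genes are transcribed under E2F factors towards S phase, and most haematopoietic stem cells of an unperturbed adult mouse are quiescent.

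Depleted CD41+ replicate 1 was the shallowest library, with 974196 deposited counts, and depleted CD41- replicate 1 the deepest, with 9950423. The median over the 11 libraries was 3878931. A floor of 3 counts stood at 0.301 to 3.08 CPM, and it covers counting error only, since PCR copies carried no molecular identifiers. All 12 genes of the stem cell sort and identity list were detected in every group. They include Cd48, the gene of a surface protein that the sort selects against, at 25.7 ± 13.8, 39.9 ± 20.5, 42.2 ± 13.6 and 62.5 ± 37.5 CPM in control CD41-, control CD41+, depleted CD41- and depleted CD41+ cells (SD, n = 3, 2, 3 and 3). Itga2b, which encodes CD41, was 389 ± 49.9 CPM in control CD41+ cells (SD, n = 2) against 69.0 ± 26.8 CPM in control CD41- cells (SD, n = 3). The groups were not alike in this list. Of the 12 genes, 2 were called higher and 2 lower in CD41+ than in CD41- cells of control mice. After depletion in CD41- cells, 0 were called higher and 1 lower. In the group order given for Cd48, Hlf was 292 ± 46.5, 94.7 ± 18.7, 156 ± 9.81 and 65.2 ± 22.2 CPM. Procr was 94.3 ± 15.5, 37.8 ± 6.32, 69.5 ± 5.49 and 23.1 ± 6.53 CPM.

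The control CD41- cells were the group with the lowest transcript levels of the replication genes, and the other 3 groups lay close together above them. The 52 genes took 0.754%, 0.644% and 0.606% of all counts in the 3 control CD41- libraries. They took 1.08% and 1.09% in control CD41+ cells, 1.19%, 1.24% and 1.05% in depleted CD41- cells, and 1.19%, 1.34% and 1.13% in depleted CD41+ cells. No control CD41- library reached the lowest of the other 8 libraries, whereas the ranges of the 2 depleted groups overlapped. As group means this was 0.668 ± 0.0771% (SD, n = 3) in control CD41-, 1.09 ± 0.00841% (SD, n = 2) in control CD41+, 1.16 ± 0.0966% (SD, n = 3) in depleted CD41- and 1.22 ± 0.109% (SD, n = 3) in depleted CD41+ cells. In bulk RNA of this kind, fewer cells in S phase and less transcript per cell cannot be told apart.

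**Figure D1:**
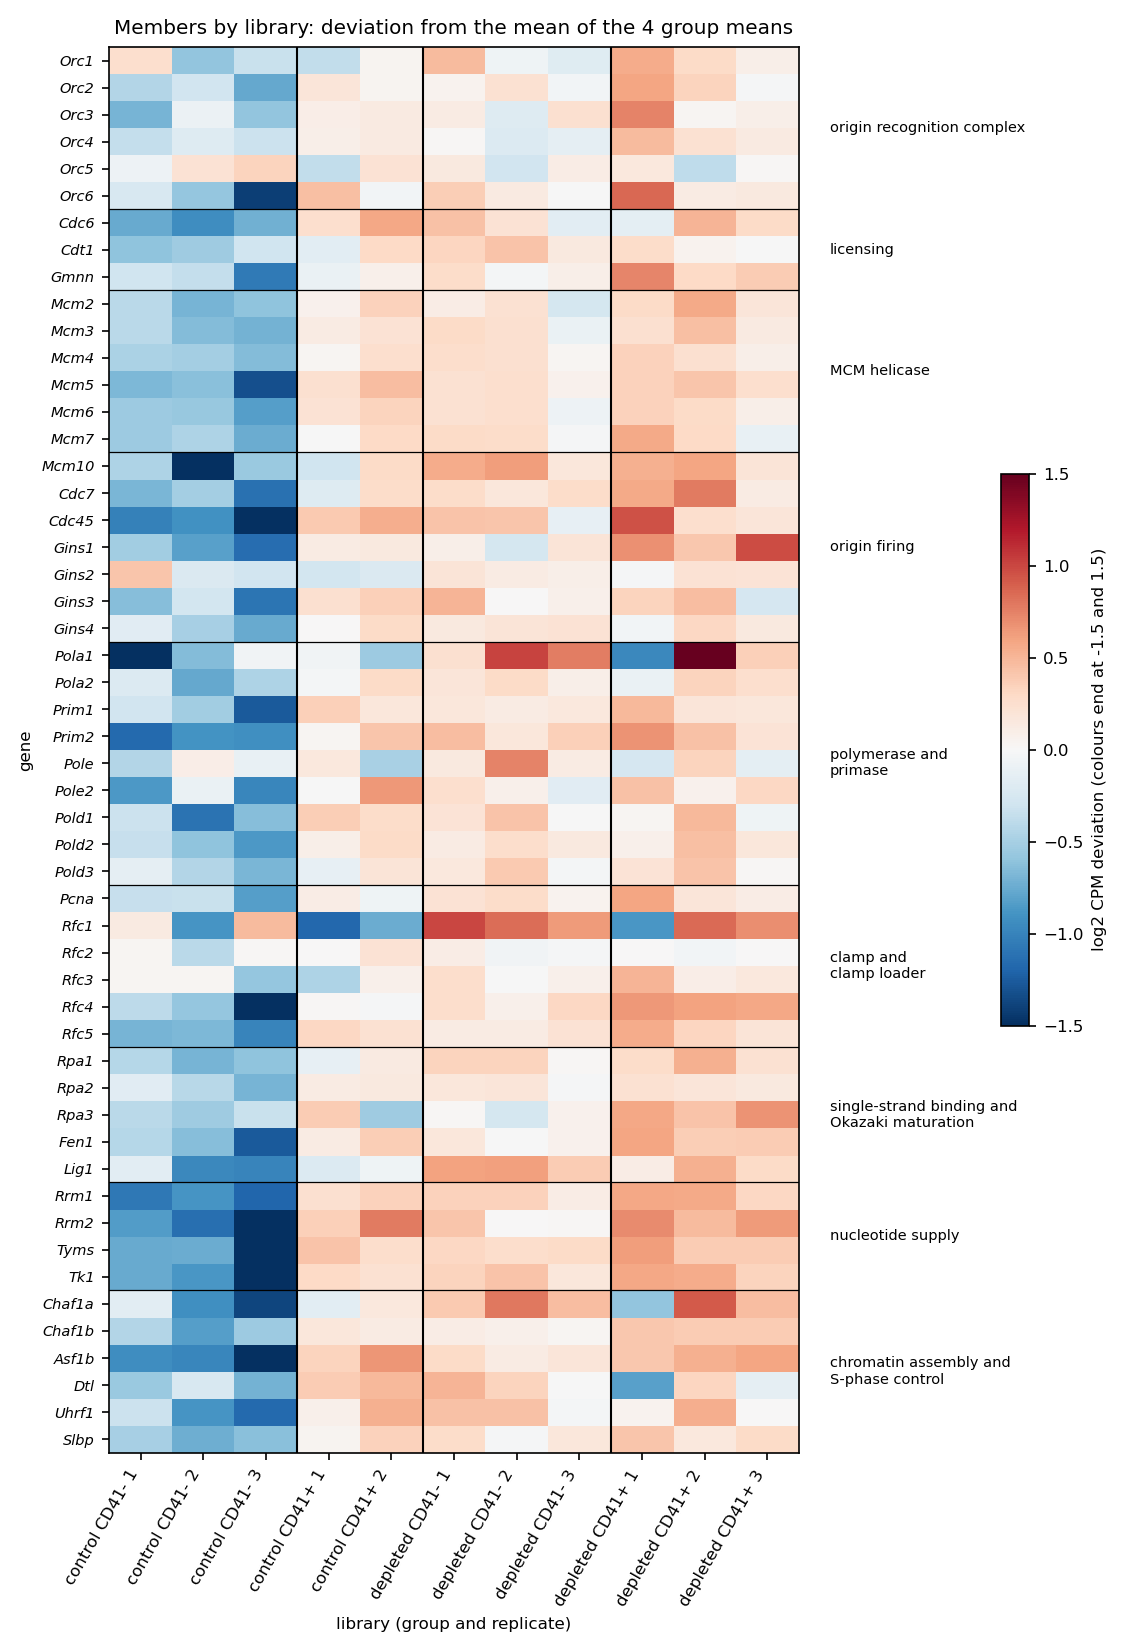
Level of each of the 52 genes (rows, in role groups) in each of the 11 libraries (columns, by group), as the log2 deviation of CPM from the mean of the 4 group means. The 3 control CD41- columns are low for nearly all rows, with mean deviations of -0.46, -0.60 and -0.82, and the other 8 columns have mean deviations between 0.05 and 0.39.

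Gene by gene, the same order was seen. For 37 of the 52 genes every control CD41- library lay below all 8 others, a pattern met by 5.66% of all genes tested (761 of 13448). For 48 of the 52 the control CD41- mean was the lowest of the 4 group means. The other 4 were Orc5, lowest in depleted CD41+ cells, and Gins2, Rfc1 and Rfc3, lowest in control CD41+ cells. Between depleted CD41- and control CD41+ cells, which differ in both treatment and CD41, the ranges overlapped for 42 genes. Depleted CD41- cells lay wholly above for 6 (Gins2, Pola1, Rfc1, Rfc4, Lig1 and Chaf1a) and wholly below for 4 (Orc4, Rfc5, Chaf1b and Asf1b), against 18.9% and 16.3% of all genes tested, and no test was made of this pair.

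Because E2F factors are the known regulators of many of these genes, their promoters were read for short E2F letter strings. RefSeq promoters (build GRCm38.p6, 250 bases before to 50 after the gene start) were available for 44 of the 52 genes. The string TTCGCGC, the string TTGGCGC and the string TTCCCGC were searched on both strands, where the first and the second can overlap on opposite strands. At least 1 of them was present for 28 of the 44 genes (63.6%), against 9.2% of all 27025 genes in the promoter table and 16.5% of the 9957 tested genes in it. In the bases before the gene start alone it was 20 of the 44 (45.5%), against 7.68% and 13.7%. A gene with more than 1 promoter in the table was counted once, for a match in any of them. The 170 bases before the RefSeq gene start are given for Mcm6 and Mcm5, which hold overlapping E2F strings, and for Rrm1, which holds 1. They are also given for Orc3, which holds 1 but whose transcript was not called, and for Tk1, which was called and holds none. The RefSeq start can differ from the start in the gene coordinates used elsewhere here. In those coordinates Mcm5 begins at 75109569, past its printed stretch, and Tk1 at 117826092, inside its stretch. Capitals mark the E2F strings, and each line reads 5′ to 3′ on the strand of the gene.
Mcm6, chr1:128359706-128359875, minus strand: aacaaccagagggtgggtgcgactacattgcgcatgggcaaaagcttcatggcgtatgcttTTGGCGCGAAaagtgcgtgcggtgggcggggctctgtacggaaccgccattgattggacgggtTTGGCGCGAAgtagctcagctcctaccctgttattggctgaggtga
Mcm5, chr8:75109339-75109508, plus strand: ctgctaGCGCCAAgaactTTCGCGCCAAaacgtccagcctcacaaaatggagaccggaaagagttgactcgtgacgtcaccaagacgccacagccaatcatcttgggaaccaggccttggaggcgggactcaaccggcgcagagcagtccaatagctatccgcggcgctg
Rrm1, chr7:102441525-102441694, plus strand: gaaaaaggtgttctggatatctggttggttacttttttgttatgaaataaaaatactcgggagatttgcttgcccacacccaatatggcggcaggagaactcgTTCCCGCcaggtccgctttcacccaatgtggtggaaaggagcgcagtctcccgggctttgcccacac
Orc3, chr4:34614943-34615112, minus strand: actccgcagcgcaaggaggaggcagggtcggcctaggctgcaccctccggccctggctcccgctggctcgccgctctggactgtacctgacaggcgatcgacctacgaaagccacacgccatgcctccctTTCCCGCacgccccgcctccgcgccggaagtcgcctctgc
Tk1, chr11:117826015-117826184, minus strand: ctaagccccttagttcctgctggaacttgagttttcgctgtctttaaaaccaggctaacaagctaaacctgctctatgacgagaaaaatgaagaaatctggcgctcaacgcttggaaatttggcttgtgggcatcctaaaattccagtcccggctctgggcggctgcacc

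The share with a match was no higher among called than among uncalled genes. Among the 24 genes with promoters that were called higher after depletion in CD41- cells, 14 held an E2F string (58.3%). Among the 20 not called there, 14 did (70%). In the bases before the gene start alone it was 9 of the 24 (37.5%) and 11 of the 20 (55%). CCAAT was present for 28 of the 44 genes (63.6%), against 41.1% of all genes in the table and 42.7% of tested genes. The CHR string TTTGAA or its variant TTCGAA, known from genes of late cell cycle, were present in 9 of the 44 (20.5%), against 21.7% and 16.9%. The comparison genes were not matched for base composition, and a letter match is no evidence of binding.

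In control mice, the first question was how stem cells with and without surface CD41 differ. Of the 52 genes, 20 were higher in CD41+ cells and 0 were lower, where 1.58% of all genes tested were higher and 1.04% lower (2.62% in either direction). The median log2 fold change was 0.75, against -0.03 over all genes tested, and 48 of the 52 values were positive. The 2 CD41+ libraries lay above all 3 CD41- libraries for 42 genes, a pattern met by 17.4% of all genes tested. The count rested on few libraries: leaving out control CD41+ replicate 2 left 3 genes and leaving out replicate 1 of that group left 11, while it was 11 or 13 without replicate 3 or 2 of the control CD41- cells. Rfc5, Rrm1 and Asf1b were called in all 11 fits that left out 1 library.

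Platelet depletion was read first in the CD41- cells. After 24 h, 26 of the 52 genes were higher and 0 were lower, where 2.3% of all genes tested were higher and 0.892% lower (3.19% in either direction). The median log2 fold change was 0.78, against -0.03 over all genes tested, and 51 of the 52 values were positive. All 3 depleted libraries lay above all 3 control libraries for 44 genes, against 12.9% of all genes tested. The count was 10 without depleted CD41- replicate 1, 12 without its replicate 2 and 16 without its replicate 3, and it was 13 and 12 without control CD41- replicates 2 and 3. The 10 genes called in every such fit were Mcm5, Cdc45, Prim2, Rfc5, Lig1, Rrm1, Rrm2, Tyms, Tk1 and Asf1b. This comparison and the one in control mice use the same 3 control CD41- libraries, so their results are not independent of each other.

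Neither contrast passed the test for any of the 52 genes on the other side of the design. Between CD41+ and CD41- cells of depleted mice, 0 genes were called, where 0.0669% of all genes tested were higher and 0.126% lower (0.193% in either direction). The 3 CD41+ libraries lay above the 3 CD41- libraries for 10 genes and below for 0, against 8.35% and 9.32% of all genes tested. The median log2 fold change was 0.12, and values ran from -0.40 to 0.70. Unadjusted p-values of edgeR were under 0.05 for 4 genes, all higher, against 560 higher and 674 lower of all 13448 genes tested. DESeq2 called 0 of the 52. With consecutive title numbers as a replicate block, calls over all genes rose from 26 to 158, and 0 of the 52 were among them. Between depleted and control CD41+ cells, 0 were called, where 0.0372% of all genes tested were higher and 0.0669% lower (0.104% in either direction). The median was 0.15, and values ran from -0.55 to 1.39. Unadjusted p-values of edgeR were under 0.05 for 3 genes, all higher, against 832 higher and 814 lower of all 13448 genes tested. DESeq2 called 0 of the 52 here too.

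**Figure D2:**
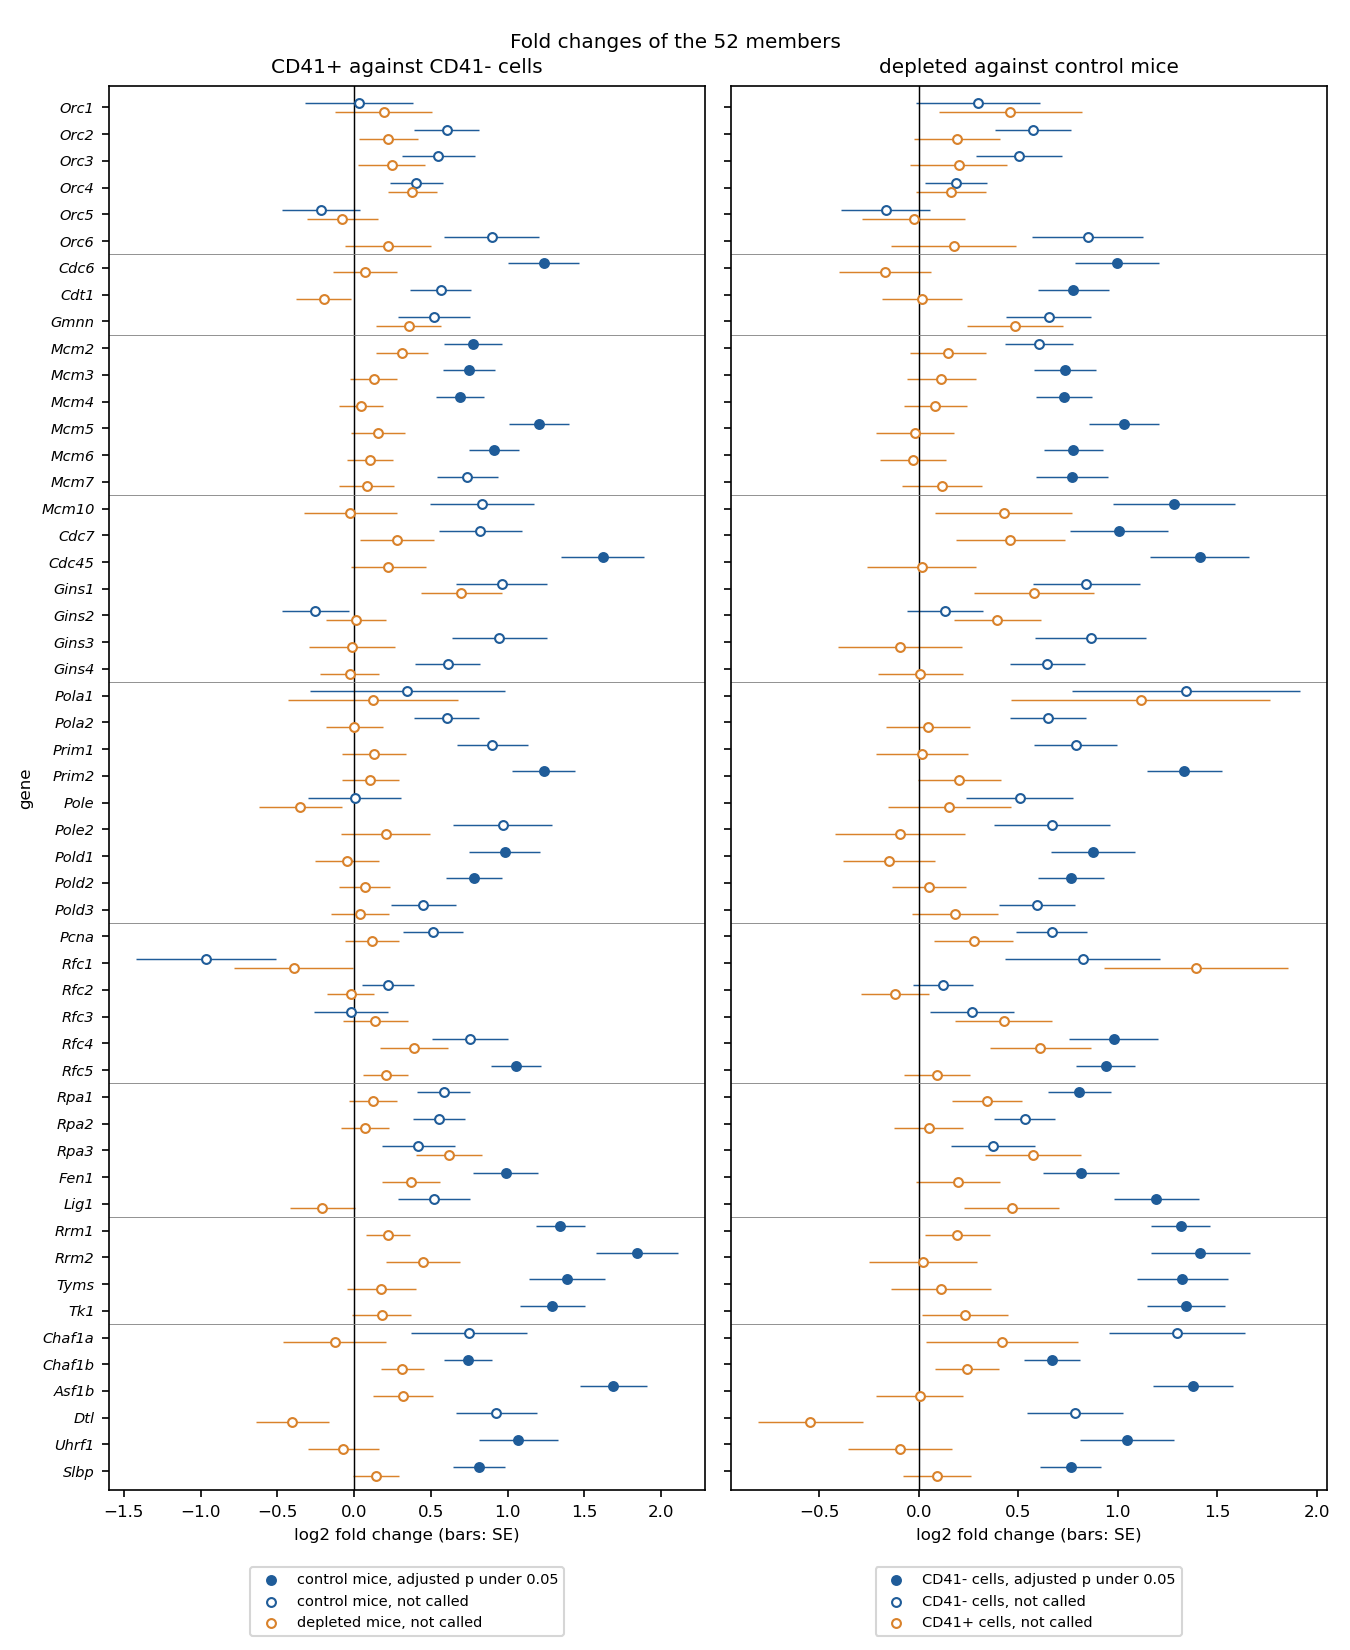
Log2 fold change (horizontal axis) with its SE (bars) for each of the 52 genes (vertical axis, in role groups). The left panel gives CD41+ against CD41- cells in control (blue) and depleted (orange) mice, and the right panel depleted against control mice in CD41- (blue) and CD41+ (orange) cells. Filled points passed an adjusted p of 0.05, which only blue points did: 20 on the left and 26 on the right.

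The 4 genes of deoxynucleotide supply had the highest median of the role groups, 1.36 on the log2 scale in control mice and 1.33 after depletion in CD41- cells, and all 4 were called in both. Rrm1 (ENSMUSG00000030978, GRCm38 chr7:102441695-102469771, plus strand) encodes the large subunit of ribonucleotide reductase, the enzyme that makes deoxynucleotides from ribonucleotides. Its level was 366, 414 and 335 CPM in control CD41- cells, 908 and 976 in control CD41+ cells, 972, 978 and 826 CPM in depleted CD41- cells, and 1147, 1136 and 951 CPM in depleted CD41+ cells. Every control CD41- library was below every other library, and the other 3 groups overlapped. Rrm1 was 2.54-fold higher in CD41+ than in CD41- cells of control mice (log2 1.34 ± 0.16 SE, adjusted p = 0.00198, edgeR) and 2.49-fold higher after depletion in CD41- cells (log2 1.32 ± 0.15, adjusted p = 0.000424, edgeR).

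Rrm2 (chr12:24708241-24714146, plus strand), the small subunit whose amount follows the cell cycle, was 138, 113 and 60.6 CPM in control CD41- cells, 317 and 425 in control CD41+ cells, 329, 248 and 251 CPM in depleted CD41- cells, and 405, 343 and 384 CPM in depleted CD41+ cells. Again the control CD41- libraries stood apart below the rest. With 3.58-fold, Rrm2 had the largest difference of the 52 genes between CD41+ and CD41- cells of control mice (log2 1.84 ± 0.27, adjusted p = 0.00367, edgeR), and with 2.67-fold also the largest after depletion in CD41- cells (log2 1.42 ± 0.25, adjusted p = 0.00622, edgeR). The other two genes of the group make thymidylate and are named to complete it. Tyms, thymidylate synthase, was 75.1 ± 27.4 CPM in control CD41- cells (SD, n = 3) and 188 ± 3.23 CPM in depleted CD41- cells (SD, n = 3). Tk1, thymidine kinase, was 61.4 ± 16.6 and 156 ± 14.3 CPM in the same groups (SD, n = 3 each), and both enzymes were higher by log2 1.32 to 1.34 after depletion (adjusted p = 0.0057 and 0.00198, edgeR).

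**Figure D3:**
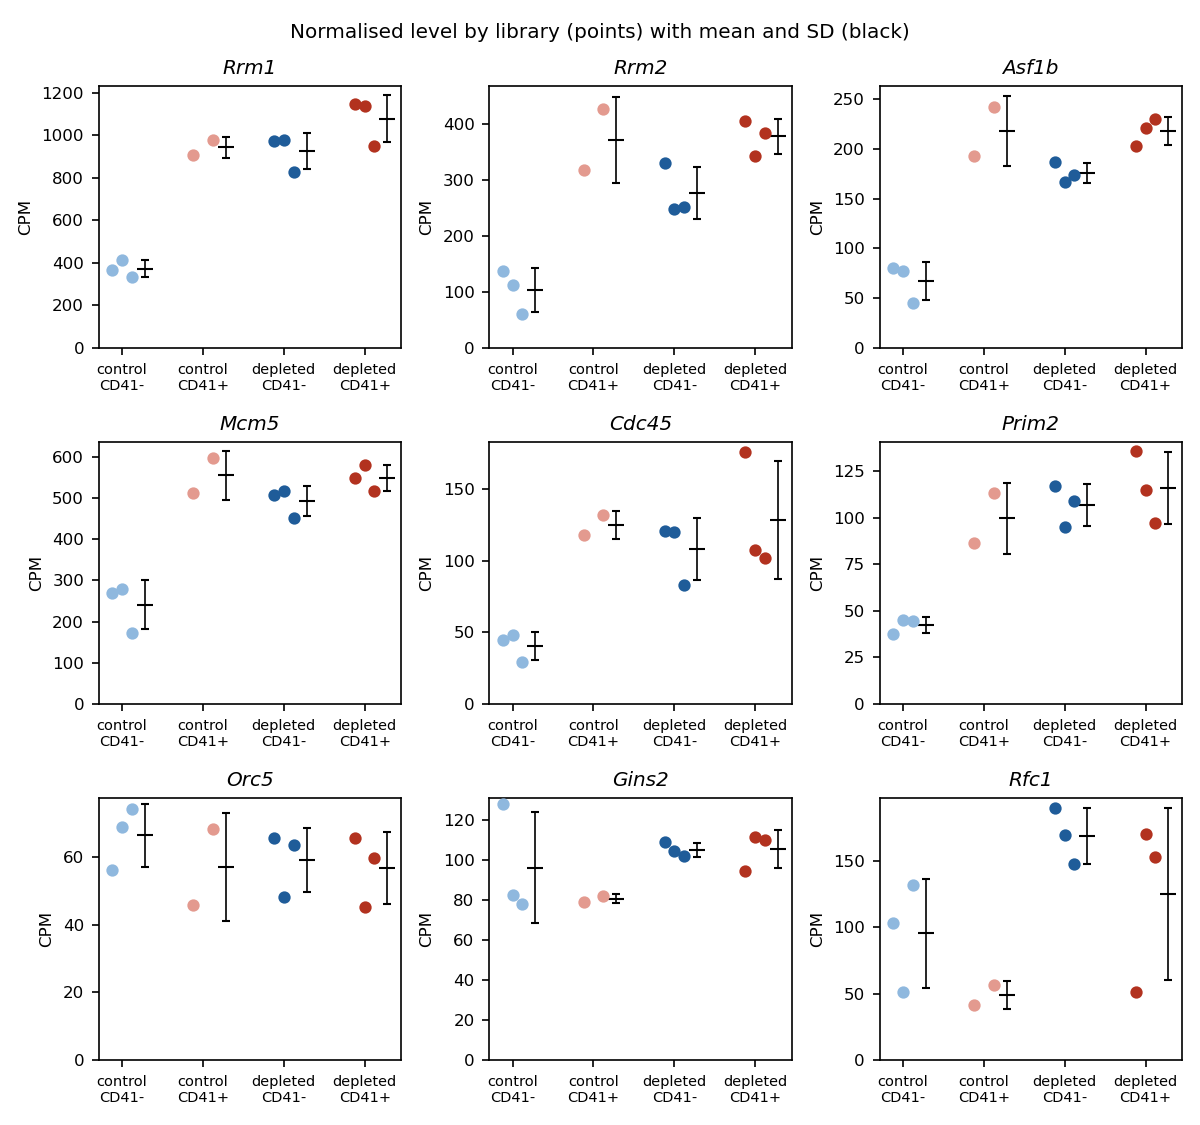
CPM (vertical axes, starting at 0) in each of the 11 libraries for Rrm1, Rrm2, Asf1b, Mcm5, Cdc45, Prim2, Orc5, Gins2 and Rfc1, by group (horizontal axes), with bars at the group means. For Rrm1, Rrm2, Asf1b, Mcm5, Cdc45 and Prim2 the 3 control CD41- points lie below all others, whereas the groups overlap for Orc5. Gins2 and Rfc1 have their lowest group mean in control CD41+ cells, where the points overlap those of control CD41- cells.

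The 6 subunits of the MCM helicase moved together: 5 of 6 were called in control mice and 5 of 6 after depletion in CD41- cells, with medians of 0.76 and 0.75 on the log2 scale. Mcm5 (chr8:75109569-75128439, plus strand) was 271, 279 and 173 CPM in control CD41- cells, 513 and 597 in control CD41+ cells, 508, 518 and 452 CPM in depleted CD41- cells, and 548, 580 and 516 CPM in depleted CD41+ cells. The lowest of the 8 libraries outside control CD41- was thus well above the highest control CD41- library. Mcm5 was 2.30-fold higher in control CD41+ cells (log2 1.20 ± 0.19, adjusted p = 0.00617, edgeR) and 2.04-fold higher after depletion in CD41- cells (log2 1.03 ± 0.18, adjusted p = 0.0057, edgeR). Mcm6 was highest of the 52 genes per annotated exon length. It went from 699 ± 72.9 CPM in control CD41- cells to 1313 ± 74.7 CPM in control CD41+ and 1199 ± 148 CPM in depleted CD41- cells (SD, n = 3, 2 and 3). Mcm3 went from 416 ± 47.4 to 698 ± 32.5 and 692 ± 97.4 CPM over the same groups (SD, n = 3, 2 and 3). The single uncalled subunit was Mcm7 in control mice (log2 0.74 ± 0.20, adjusted p = 0.0656, edgeR) and Mcm2 after depletion (log2 0.61 ± 0.17, adjusted p = 0.0748, edgeR), and DESeq2 called both (adjusted p = 0.0153 and 0.0169).

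Loading and activation of that helicase gave a mixed picture. Of the 3 licensing genes, Cdc6, which loads the helicase, was called in both comparisons, Cdt1, its partner, after depletion (log2 0.78, adjusted p = 0.03, against 0.56, adjusted p = 0.139 in control mice, edgeR), and geminin (Gmnn), the inhibitor of Cdt1, in neither. Cdc6 was 48.7, 43.2 and 49.9 CPM in control CD41- cells, 98.6 and 124 in control CD41+ cells, 112, 96.1 and 73.8 CPM in depleted CD41- cells, and 74.5, 118 and 101 CPM in depleted CD41+ cells. The 3 control CD41- libraries were close to each other and below the rest (log2 1.23 ± 0.23 in control mice, adjusted p = 0.0143, and 0.99 ± 0.21 after depletion, adjusted p = 0.0195, edgeR). Gmnn was 58.8 ± 15.8 CPM in control CD41- and 119 ± 19.4 CPM in depleted CD41+ cells (SD, n = 3 each).

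Among the 7 genes of origin firing, 1 was called in control mice and 3 after depletion in CD41- cells. Cdc45 (chr16:18780447-18811987, minus strand), which joins MCM and GINS in the active helicase, was 44.6, 47.9 and 29.7 CPM in control CD41- cells, 118 and 132 in control CD41+ cells, 121, 120 and 83.0 CPM in depleted CD41- cells, and 176, 107 and 102 CPM in depleted CD41+ cells. The groups other than control CD41- overlapped widely. Cdc45 was 3.07-fold higher in control CD41+ cells (log2 1.62 ± 0.27, adjusted p = 0.00751, edgeR) and 2.66-fold higher after depletion in CD41- cells (log2 1.41 ± 0.25, adjusted p = 0.00651, edgeR). Mcm10, which helps to activate the helicase, and the kinase Cdc7 were called after depletion (log2 1.28 ± 0.31 and 1.01 ± 0.25, adjusted p = 0.0367 and 0.0396, edgeR). The 4 GINS subunits were not called by edgeR in either comparison, whereas DESeq2 called Gins1 in control mice (log2 0.98, adjusted p = 0.0383) and Gins4 after depletion in CD41- cells (log2 0.64, adjusted p = 0.0251). With edgeR, Gins1 was called on the average of the CD41 difference over both treatments (log2 0.83 ± 0.20, adjusted p = 0.0282, edgeR), with group means from 15.5 ± 3.41 CPM in control CD41- to 45.1 ± 9.03 CPM in depleted CD41+ cells (SD, n = 3 each).

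Of the 6 subunits of the origin recognition complex, 0 were called by edgeR or DESeq2 in either comparison, with medians of 0.48 and 0.40 on the log2 scale. Unadjusted p-values of edgeR were under 0.05 for 4 of the 6 in control mice and for 3 of the 6 after depletion in CD41- cells, all higher. Among all 13448 genes tested, 1263 higher and 1280 lower had such a p in control mice. After depletion in CD41- cells, 1235 higher and 1037 lower did. With no filter on low counts, Orc6 was called in both (log2 0.91 and 0.89, adjusted p = 0.0107 and 0.00565, edgeR). No test was made between role groups. Orc6, the smallest subunit, was 58.3 ± 22.2 CPM in control CD41- and 105 ± 13.9 CPM in depleted CD41- cells (SD, n = 3 each, log2 0.85 ± 0.28, adjusted p = 0.13, edgeR). Orc2, a core subunit, was 64.4 ± 10.7 and 95.8 ± 9.22 CPM (SD, n = 3 each, log2 0.57 ± 0.19, adjusted p = 0.137, edgeR). Orc4 was 82.1 ± 5.12 and 93.3 ± 7.29 CPM in these groups, and 109 ± 2.51 and 122 ± 14.9 CPM in control and depleted CD41+ cells (SD, n = 3, 3, 2 and 3). Orc5 was 56.1, 68.8 and 74.2 CPM in control CD41- cells, 45.7 and 68.4 in control CD41+ cells, 65.5, 48.2 and 63.6 CPM in depleted CD41- cells, and 65.6, 45.1 and 59.7 CPM in depleted CD41+ cells. All 4 groups of Orc5 overlapped, and its log2 fold changes were -0.22 ± 0.25 in control mice and -0.17 ± 0.22 after depletion (adjusted p = 0.684 and 0.767, edgeR). Orc1, whose protein is turned over in the cell cycle, had 19.3 ± 6.11 CPM in control CD41- and 23.6 ± 6.13 CPM in depleted CD41- cells (SD, n = 3 each), overlapping as well.

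Polymerases and primase numbered 9 genes, of which edgeR called 3 in each comparison, namely Prim2, Pold1 and Pold2. DESeq2 also called Prim1 in both (log2 0.91 and 0.78, adjusted p = 0.0102 and 0.0142). After depletion in CD41- cells it called Pola2 as well (log2 0.64, adjusted p = 0.0246). Prim2 (chr1:33453810-33669795, minus strand), the large subunit of primase, was 37.4, 45.3 and 44.5 CPM in control CD41- cells, 86.3 and 113 in control CD41+ cells, 117, 94.9 and 109 CPM in depleted CD41- cells, and 136, 115 and 97.3 CPM in depleted CD41+ cells. Its control CD41- libraries agreed closely and all lay below the others. Prim2 was 2.35-fold higher in control CD41+ cells (log2 1.23 ± 0.21, adjusted p = 0.00751, edgeR) and 2.52-fold higher after depletion in CD41- cells (log2 1.33 ± 0.19, adjusted p = 0.00163, edgeR). Pold2, a subunit of the lagging-strand polymerase delta, was 118 ± 21.1, 203 ± 20.2 and 201 ± 10.7 CPM in control CD41-, control CD41+ and depleted CD41- cells (SD, n = 3, 2 and 3). Pole, the catalytic subunit of the leading-strand polymerase epsilon, was 38.8 ± 7.12, 38.9 ± 12.3 and 55.2 ± 14.4 CPM in the same groups. Its control groups overlapped, and its 3 depleted CD41- libraries lay above the 3 control CD41- libraries without a call (log2 0.00 ± 0.30 in control mice and 0.51 ± 0.27 after depletion, adjusted p = 0.998 and 0.365, edgeR). Pola1, the catalytic subunit of polymerase alpha, is named because its libraries spread most: 26.7, 177 and 67.9 CPM within depleted CD41+ cells.

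For the sliding clamp and its loader, Rfc5 was called in both comparisons and Rfc4 after depletion in CD41- cells. Rfc5 (chr5:117378103-117389047, minus strand), a small loader subunit, was 165, 168 and 135 CPM in control CD41- cells, 333 and 314 in control CD41+ cells, 292, 293 and 313 CPM in depleted CD41- cells, and 394, 337 and 307 CPM in depleted CD41+ cells. All control CD41- values were far below the others, with a 2.07-fold difference in control mice (log2 1.05 ± 0.16, adjusted p = 0.00516, edgeR) and a 1.92-fold rise after depletion (log2 0.94 ± 0.15, adjusted p = 0.00332, edgeR). Rfc4 was 80.3 ± 29.4 CPM in control CD41- and 158 ± 13.5 CPM in depleted CD41- cells (SD, n = 3 each, adjusted p = 0.0299, edgeR). Pcna, the clamp itself, was 176 ± 32.2 CPM in control CD41- and 279 ± 22.3 CPM in depleted CD41- cells (SD, n = 3 each), without overlap but not called by edgeR (log2 0.67 ± 0.18, adjusted p = 0.0581), whereas DESeq2 called it (adjusted p = 0.0145).

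Rfc1, the large loader subunit, had the largest value against the direction of the set. It was 103, 51.0 and 132 CPM in control CD41- cells, 41.4 and 56.2 in control CD41+ cells, 189, 169 and 148 CPM in depleted CD41- cells, and 51.2, 171 and 153 CPM in depleted CD41+ cells. The low libraries were thus both control CD41+ libraries, 1 control CD41- library and the shallowest library, depleted CD41+ replicate 1. Its log2 fold changes were -0.97 ± 0.45 in control mice, 0.82 ± 0.39 after depletion in CD41- cells and 1.39 ± 0.46 in CD41+ cells (adjusted p = 0.277, 0.313 and 0.269, edgeR). Without depleted CD41+ replicate 1, Rfc1 was the single gene of the set called after depletion in CD41+ cells (log2 1.72, adjusted p = 0.0488, edgeR). For depletion averaged over fractions the reported fit did not call it, but DESeq2 did (log2 1.10, adjusted p = 0.00232). There edgeR called it with RLE factors (adjusted p = 0.0454) and without depleted CD41+ replicate 1 (0.00479) or control CD41- replicate 3 (0.0477). With no filter, edgeR called it higher after depletion in CD41- cells (log2 0.86, adjusted p = 0.0052) and lower in control CD41+ cells (log2 -0.95, adjusted p = 0.00867). Gins2 ran in the same direction in control mice with a smaller value (log2 -0.25 ± 0.22, adjusted p = 0.562, edgeR).

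Of the 5 genes of single-strand binding and Okazaki fragment maturation, edgeR called 1 in control mice and 3 after depletion in CD41- cells. DESeq2 also called Rpa1 and Rpa2 in control mice (log2 0.60 and 0.57, adjusted p = 0.0188 and 0.031). After depletion in CD41- cells it called Rpa2 as well (log2 0.53, adjusted p = 0.0226). Lig1 (chr7:13277283-13311433, plus strand), the ligase that seals Okazaki fragments, was 156, 88.7 and 87.3 CPM in control CD41- cells, 151 and 166 in control CD41+ cells, 264, 268 and 227 CPM in depleted CD41- cells, and 189, 253 and 213 CPM in depleted CD41+ cells. Here the 2 control groups overlapped, and all 6 depleted libraries lay above all 5 control libraries. Lig1 was 2.29-fold higher after depletion in CD41- cells (log2 1.19 ± 0.21, adjusted p = 0.00712, edgeR), with 0.47 ± 0.24 in CD41+ cells (adjusted p = 0.459, edgeR). Fen1, the flap endonuclease, was 151 ± 42.1, 298 ± 35.5 and 265 ± 15.7 CPM in control CD41-, control CD41+ and depleted CD41- cells (SD, n = 3, 2 and 3) and was called in both comparisons (adjusted p = 0.0247 and 0.0337, edgeR). Most of its exon length (78.8%) also carries the antisense gene Gm10143, with the strand setting of the counts not given in the sources used here. Rpa1, the large subunit of replication protein A, was called after depletion, while Rpa3, the small subunit, was 67.5 ± 4.63, 87.4 ± 10.5 and 134 ± 11.5 CPM in control CD41-, depleted CD41- and depleted CD41+ cells (SD, n = 3 each) and was not called by edgeR in any comparison. DESeq2 called Rpa3 for the CD41 difference averaged over treatments (log2 0.54, adjusted p = 0.0271), and edgeR did so with the replicate block (adjusted p = 0.0484), with no filter (0.0431) and without control CD41+ replicate 2 (0.0239). For depletion averaged over fractions, edgeR called Rpa3 without control CD41+ replicate 1 (adjusted p = 0.0288).

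Chromatin assembly and S-phase control held 6 genes, of which edgeR called Chaf1b, Asf1b, Uhrf1 and Slbp in both comparisons. DESeq2 also called Chaf1a after depletion in CD41- cells (log2 1.29, adjusted p = 0.00604). Asf1b (chr8:83955507-83970197, plus strand), a histone chaperone, was 80.0, 77.2 and 45.5 CPM in control CD41- cells, 193 and 243 in control CD41+ cells, 187, 166 and 174 CPM in depleted CD41- cells, and 202, 221 and 230 CPM in depleted CD41+ cells. Control CD41- cells were lowest without overlap, and depleted CD41- cells lay below both CD41+ groups. Asf1b was 3.22-fold higher in control CD41+ cells (log2 1.69 ± 0.22, adjusted p = 0.00304, edgeR) and 2.60-fold higher after depletion in CD41- cells (log2 1.38 ± 0.20, adjusted p = 0.00198, edgeR). Chaf1b, a subunit of chromatin assembly factor 1, was 121 ± 16.0, 202 ± 4.61, 192 ± 5.30 and 239 ± 2.29 CPM in control CD41-, control CD41+, depleted CD41- and depleted CD41+ cells (SD, n = 3, 2, 3 and 3). Slbp, which binds the stem-loop of histone mRNAs, was higher by log2 0.81 ± 0.17 and 0.76 ± 0.15 (adjusted p = 0.0224 and 0.014, edgeR), and Uhrf1, which brings Dnmt1 to new DNA, by 1.07 ± 0.26 and 1.05 ± 0.24 (adjusted p = 0.0434 and 0.0273, edgeR).

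Dtl, the receptor of the ubiquitin ligase that removes Cdt1 in S phase, was the single gene of the set whose depleted CD41+ libraries all lay below the control CD41+ libraries, a pattern met by 13.8% of all genes tested, and it is named for that reason. It was 186 and 201 CPM in control CD41+ cells and 81.2, 180 and 130 CPM in depleted CD41+ cells, with 81.2 CPM in the shallowest library (log2 -0.55 ± 0.26, adjusted p = 0.428, edgeR). In the other direction, depleted CD41+ libraries lay above control CD41+ libraries for 12 of the 52 genes, where 13.2% of all genes tested did so. In CD41- cells Dtl was 96.8, 121 and 87.3 CPM in control and 203, 180 and 142 CPM in depleted mice, without overlap. DESeq2 called Dtl higher in control CD41+ than control CD41- cells (log2 0.94, adjusted p = 0.0188). It also called Dtl higher after depletion in CD41- cells (log2 0.78, adjusted p = 0.0347), whereas edgeR called it in neither comparison.

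Whether depletion acted differently on the 2 fractions was tested as the difference of the responses, CD41+ minus CD41-. None of the 52 genes passed with edgeR, as none of all 13448 genes did (0%). The values themselves were mostly negative: 46 of the 52 were below 0, with a median of -0.64 on the log2 scale against -0.003 over all genes, and 25 had an unadjusted p under 0.05, all negative, compared with 442 negative and 383 positive among all genes. Cdc45 had the lowest value (-1.40 ± 0.36, adjusted p = 0.411, edgeR), and Rrm1 the smallest p (-1.12 ± 0.22, adjusted p = 0.304, edgeR). DESeq2 called 2 of the 52, Rrm1 and Asf1b, both lower (log2 -1.10 and -1.35, adjusted p = 0.00385 and 0.0177). The 4 nucleotide supply genes ran from -1.39 to -1.11, and the 6 ORC genes from -0.67 to 0.16.

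Averages over both fractions or both treatments gave counts of the same size. CD41+ cells were higher than CD41- cells for 17 genes on average over treatments (2.73% of all genes tested were higher and 2.65% lower, 5.38% in all), with 9 without control CD41+ replicate 2. Depleted mice were higher than controls for 18 genes on average over fractions (3.6% of all genes tested were higher and 2.73% lower, 6.33% in all), with 4 and 6 without control CD41+ replicates 1 and 2, 8 without depleted CD41- replicate 1 or 3, and 11 without depleted CD41+ replicate 3. In neither average was any of the 52 genes lower. Both averages contain the low control CD41- group, and their medians were 0.44 each on the log2 scale. The comparisons without that group had medians of 0.12 (CD41 in depleted mice) and 0.15 (depletion in CD41+ cells), with 0 genes called in each.

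Per kilobase of annotated exon, the 52 genes covered a wide range. The length used is the union of all annotated exons, which can be longer than the transcript expressed, so the ranking depends on the annotation. Mcm6 (241 CPM per kb), Mcm3 (171) and Mcm5 (115) were highest as means of the 4 groups, and Pole (3.93), Mcm10 (5.09) and Orc1 (6.46) were lowest, with a median of 37.1 CPM per kb. Annotated genes on the opposite strand also cover 67.3% of the exons of Gins2 (Gse1), 52.5% of Chaf1a (Ubxn6) and 29.8% of Orc2 (Nif3l1), so the values of these genes are less certain.

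The wider pathway was read from lists written from knowledge of replication, also with earlier results of these data known. Of 38 other replication factors tested, 7 were higher in CD41+ cells of control mice and 9 after depletion in CD41- cells, and 0 were lower, with medians of 0.45 and 0.67 on the log2 scale. Over all genes tested, 1.58% and 2.3% were higher in these comparisons. Exo1, an exonuclease of the fork and of repair, was 24.9 ± 5.52, 72.3 ± 4.75, 68.2 ± 14.2 and 92.4 ± 10.6 CPM in control CD41-, control CD41+, depleted CD41- and depleted CD41+ cells (SD, n = 3, 2, 3 and 3) and was called in both comparisons (log2 1.54 ± 0.24 and 1.46 ± 0.22, adjusted p = 0.00562 and 0.00269, edgeR). Of 31 other nucleotide supply genes, 5 and 3 were higher and 0 were lower, with medians of 0.57 and 0.40. Shmt2, the mitochondrial enzyme that feeds single-carbon units into nucleotide synthesis, was among them (log2 0.73 ± 0.17 and 0.77 ± 0.15, adjusted p = 0.0379 and 0.0137, edgeR). Ctps, the enzyme that makes CTP, was not called in either (log2 1.02 ± 0.27 and 0.36 ± 0.24, adjusted p = 0.0594 and 0.495, edgeR) but was on average over treatments (0.90 ± 0.18, adjusted p = 0.013, edgeR).

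Genes of mitosis, the step after replication, had larger medians than the 52 genes, 1.14 in control mice and 1.56 after depletion in CD41- cells. Of these 30 genes, 18 and 27 were higher, against 1.58% and 2.3% of all genes tested, and 0 were lower. Their summed level was 1431 to 1904 CPM in control CD41- cells, 3485 to 3924 CPM in control CD41+ cells, 4730 to 5430 CPM in depleted CD41- cells and 5080 to 5964 CPM in depleted CD41+ cells. Control CD41+ cells thus lay between control CD41- cells and both depleted groups, whereas for the share of the 52 genes in all counts their libraries (1.08% and 1.09%) lay within the range of depleted CD41- cells. After depletion in CD41+ cells, 0 of 30 mitosis genes were called, with a median of 0.60. At an unadjusted p under 0.05 in edgeR, 21 of the 30 were higher, against 832 of all 13448 genes tested, and 0 were lower. Ccnb1, the cyclin of mitotic entry, averaged 264 ± 0.720 CPM in CD41+ cells of control mice and 412 ± 55.7 CPM in those of depleted mice (SD, n = 2 and 3, log2 0.64 ± 0.22, adjusted p = 0.278, edgeR).

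**Figure D4:**
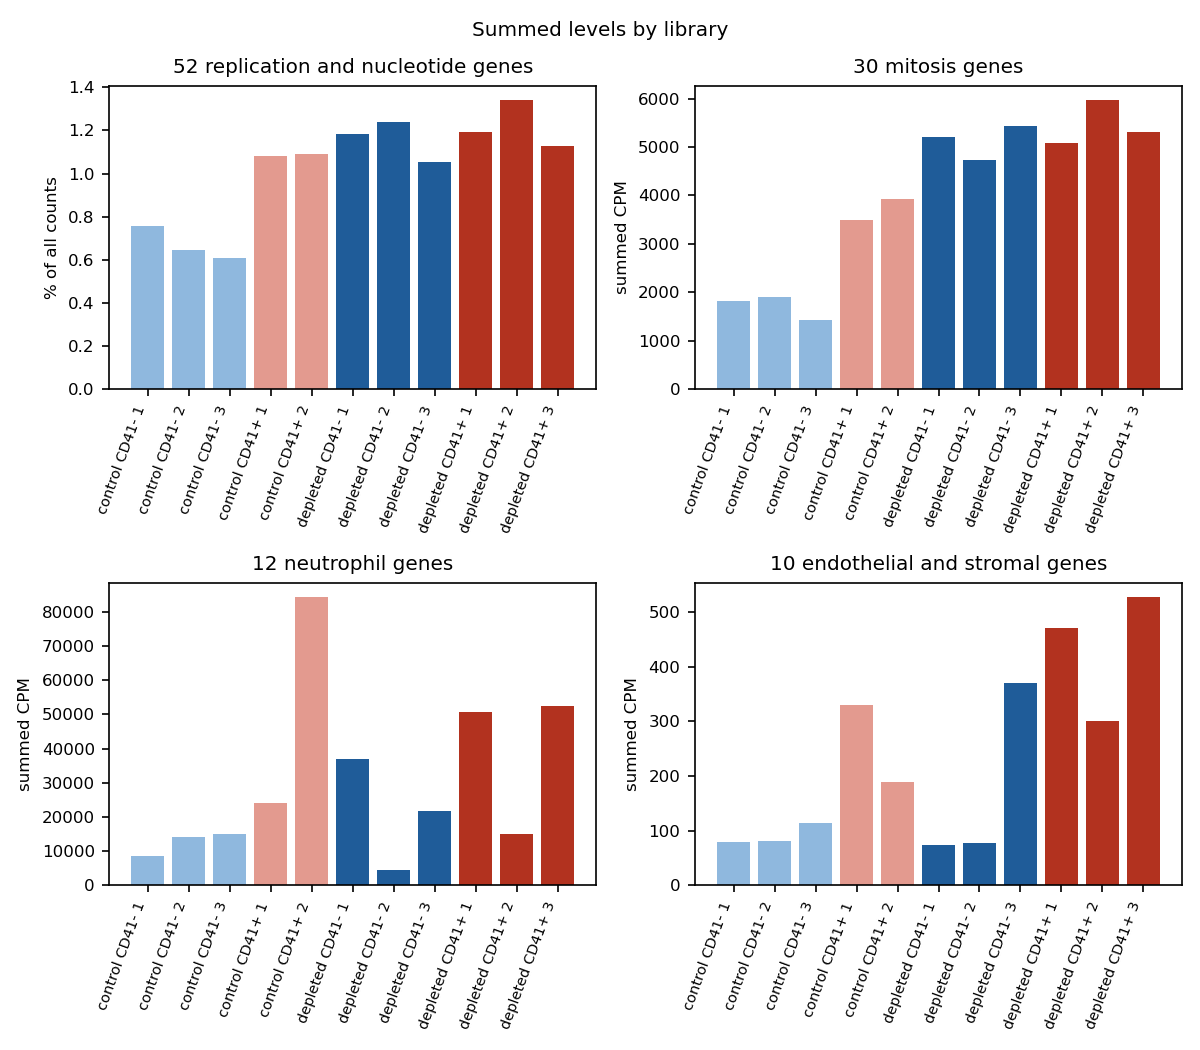
Share of the 52 genes in all counts (percent) and summed CPM of the mitosis, neutrophil and endothelial and stromal lists (vertical axes, starting at 0) in each of the 11 libraries by group, with a bar for each library. The 52 genes and the mitosis list are lowest in all 3 control CD41- libraries, whereas the neutrophil sum spreads from 4419 to 37023 CPM within depleted CD41- cells alone.

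Genes listed as markers of other cell types were detected at levels that varied between libraries, although the Lin- c-Kit+ Sca-1+ CD48- gate would remove most mature blood cells. Stem cells are themselves known to express some listed genes, Vwf and Mmrn1 of the megakaryocyte list among them. All 12 neutrophil genes were detected in every group, and their summed level was 8694 to 15119 CPM in control CD41-, 24216 to 84391 CPM in control CD41+, 4419 to 37023 CPM in depleted CD41- and 15148 to 52569 CPM in depleted CD41+ cells. The sum was lowest in depleted CD41- replicate 2, where the 52 genes took 1.24% of counts, more than in any control library. The highest neutrophil sum was in control CD41+ replicate 2, the library without which the count in control mice fell to 3. Endothelial and stromal genes summed to 79.2 to 114, 188 to 329, 73.0 to 370 and 301 to 528 CPM in the same order, with Kitl and Ibsp at 0 of the 10 in control CD41- cells. Erythroid genes summed to 2950 to 4829, 5246 to 6474, 2949 to 4574 and 4055 to 5409 CPM, and lymphoid genes to 187 to 241, 259 to 412, 101 to 210 and 174 to 228 CPM. Megakaryocyte genes summed to 392 to 808, 654 to 1145, 288 to 464 and 279 to 646 CPM, with Gp6 at 0 in every group. The part of these genes' RNA in the levels of the 52 genes was not tested.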

How the data were processed

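RNA of the 11 libraries was primed with oligo-dT, amplified and tagmented, per the labels' protocols. The submitters' processing notes name cutadapt, STAR, HTSeq 0.6.1p1 and GRCm38 (mm10), and the deposited values are the authors' unscaled counts per gene. Strand setting and annotation release: not given in the sources used here. Identifiers were named from GENCODE M21, and 259 of 49585 had no symbol. Shares of all counts were scaled to the library total alone, so a high share of other RNA lowers them. CPM were also scaled by TMM factors, which are meant to offset such shifts, and how far they did was not tested.

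Groups came from the labels. The series' design text calls the libraries biological replicates of 3 mice each. Replicates differed by 11.1 to 28.9 times the sampling variance (chi-square per degree of freedom). Counts were filtered by filterByExpr (minimum count 10, minimum total 15), which kept 13448 genes with 99.7% of counts, and scaled by TMM. They were fitted with edgeR 4.0.16 (quasi-likelihood, robust, 1 coefficient per group, limma 3.58.1, R 4.3.3). P-values were adjusted by Benjamini-Hochberg over all genes tested, at 0.05. Each SE was obtained by dividing the size of the log2 fold change by the root of its F statistic. Alternatives were no filter, RLE factors, scaling by library size alone, DESeq2 1.42.0, the compared groups alone, a replicate block and leaving out each library. The procedure was tested on simulated data.

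No label says that CD41- and CD41+ libraries with consecutive title numbers share mice. Their deviations from the group means correlated over all genes at 0.228, 0.343 and 0.207 in depleted mice (0.444, 0.611 and 0.254 over the 52 genes), where 6 of 6 libraries correlated best with their own number. In control mice the 2 pairs correlated at 0.0801 and 0.0977 (-0.177 and -0.189 over the 52 genes). The numbers were therefore read as pairs, from the data alone, in depleted mice only, and the fit without the block was kept as the reported one. The replicate block alternative nevertheless paired consecutive numbers in control mice as well.

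Levels per length divide CPM by the union of annotated exons. Promoters are from RefSeq (GRCm38.p6). Figures used matplotlib 3.10.9 in Python 3.11.15. The 52 genes and all lists were chosen with earlier results of these data known. Named with values were, per role group, the 2 genes with the smallest p for the averaged CD41 difference and the 1 with the smallest p for the difference of responses, the 3 with the smallest p after depletion in each fraction, the 3 highest and 3 lowest per length, and the 3 with the largest change against the median. Tyms, Tk1, Pola1, Pcna, Dtl, Rfc3, Chaf1a, Mcm2, Mcm7, Cdt1, Cdc7, Pold1, Rpa1, Uhrf1, Slbp, Gins4, Orc3 and, of the other lists, Cd48, Vwf, Mmrn1 and those listed at 0 were named after their values were seen. Prim1, Pola2 and Rpa2 were also named after their values were seen. Of each other list, up to 3 genes with the smallest p for the averaged CD41 difference could be named.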

Additional observations from a re-analysis of the deposited data

How the results depend on the processing

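For the 27 genes named by rule, 73 of 3051 values under the alternatives had the opposite sign to the reported value, and 0 of these passed the threshold in either fit. Of the 52 genes, 20 were higher in CD41+ cells of control mice, against 13 with library size alone (where the median of the 52 fell to 0.63), 9 with the compared groups alone, 15 with the replicate block and 3 to 23 when a library was left out. Averaged over treatments the count was 17, against 28 with DESeq2 and 9 to 21 without a library. After depletion it was 26 in CD41- cells (10 to 30 without a library), 0 in CD41+ cells (2 with no filter, Pola1 and Rfc1, and 0 to 1 without a library) and 18 on average (29 with DESeq2, 4 to 21 without a library). Lower genes numbered 0 throughout, except that with no filter Rfc1 was lower in control CD41+ cells and on average over treatments (1 gene each), and the difference of responses had 9 lower genes with no filter (Mcm5, Cdc45, Rrm1, Rrm2, Tyms, Tk1, Asf1b, Dtl and Uhrf1) and 2 with DESeq2. The median of that difference ran from -0.78 to -0.51 without control CD41+ replicate 1 or 2. The causes were not tested.

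Over all genes, calls numbered 352 for CD41 in control mice (1142 with no filter, 994 with DESeq2, 143 with the compared groups alone, 48 to 545 without a library), 26 in depleted mice (387, 207, 158 with the replicate block, 5 to 32) and 724 on average (1674, 1441, 300 to 788). For depletion they numbered 429 in CD41- cells (862, 839, 169 to 560), 14 in CD41+ cells (317, 257, 0 with the compared groups alone, 0 to 57) and 851 on average (1336, 1403, 291 to 1060). The difference of responses had 0 (178, 35, and 2 with the replicate block). With library size alone, the share of higher calls went from 60.2% to 45.1% in control mice and from 50.7% to 36% on average over treatments, and the median over all genes in control mice went to -0.15.

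With the replicate block, 0 of the 52 genes were called in depleted mice and 0 for the difference of responses, as without it. Depth limits the low genes most in depleted CD41+ replicate 1, and 2 libraries in control CD41+ cells limit every comparison that uses them.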
